A study of Mus musculus with 10 samples.

Results

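The nuclear genes for subunits of respiratory complex I were followed in mouse bone marrow cells after α-ketoglutarate (α-KG) was added to the drinking water. Members were all genes whose symbol is Nduf followed by a, b, c, s, v or ab and a number, which leaves out the Ndufaf assembly factors and names marked as pseudogenes. The rule found 37 of the 55367 genes in the table, and all 37 passed the filter on low counts. The mice of one group received 1% α-KG in water and those of the other received regular water, and each group held 5 libraries, α-KG 1 to 5 and water 1 to 5. The cells are labelled BMMC and come from bone marrow. The labels name neither strain, genotype, sex, age nor length of treatment, and do not tell whether the libraries are from separate animals, so the p-values measure only the spread between these libraries.

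Complex I takes electrons from NADH, passes them through a flavin and a chain of iron-sulphur clusters to ubiquinone, and pumps protons across the inner mitochondrial membrane. Its core subunits carry out these reactions and have bacterial counterparts, while supernumerary subunits surround the core and are needed for assembly and stability. Core subunits of the membrane arm are encoded by mitochondrial DNA as the mt-Nd genes, so a working enzyme combines nuclear and mitochondrial products. For description, the members were sorted into the N module, which oxidises NADH (10 genes), the Q module, which reduces ubiquinone (6 genes), the proximal membrane arm (9 genes) and the distal membrane arm (11 genes). The remaining member, Ndufa4, keeps its complex I name although its protein is now placed in complex IV.

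Nuclear respiratory factor 1 (NRF1), encoded by Nrf1, is known to drive many respiratory chain genes, so promoters were searched for the letters it binds. RefSeq windows on GRCm38.p6, from 250 bases before to 50 bases after the gene start, matched 33 of the 37 members. The 10 letters searched were GCGC, A, any base and GCGC. They were searched on both strands and were present in 7 of the 33 windows (21.2%), against 10.4% of 10181 windows of genes tested and 4.78% of all 27025 windows. The following stretches of 60 bases, with the NRF1 letters in capitals, show such matches in 3 members of the membrane arm, the matches that lie with their flanks before both the RefSeq and the GENCODE start. They come from chr16:37654525-37654584 (minus strand), chr4:123718250-123718309 (minus strand) and chr17:56717677-56717736 (plus strand).
Ndufb4: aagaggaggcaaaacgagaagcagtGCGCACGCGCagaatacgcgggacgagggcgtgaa
Ndufs5: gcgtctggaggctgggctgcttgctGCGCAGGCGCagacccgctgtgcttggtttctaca
Ndufa11: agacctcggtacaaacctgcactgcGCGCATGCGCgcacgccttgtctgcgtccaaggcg
The first capital base lies 191, 98 and 60 bases before the RefSeq start, in the order of the lines. Ndufb4 holds 3 such matches in its window, and the other members with a match were Ndufa5, Ndufa6, Ndufs6 and Ndufa8.

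Letters of YY1 (AAGATGG, both strands) were present in 7 member windows (21.2%) and in 7.40% of windows of genes tested. All 7 YY1 matches began 22 to 38 bases after the start. Letters of GABPA (CCGGAAG, both strands) were present in 4 member windows (12.1%) and in 18.6% of windows of genes tested. Of the 33 windows, 17 held letters of at least one of these motifs, and only that of Ndufs6 held more than one, at places that do not overlap. The median log2 fold change, α-KG over water, was -0.26 in the 7 members with NRF1 letters and -0.13 in the 26 without. It was -0.08 in the 4 members with GABPA letters and -0.20 in the 29 without, and -0.11 in the 7 with YY1 letters and -0.19 in the 26 without. None of these differences was tested. A match of letters describes the window and does not show binding.

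Libraries held 14291364 to 22490118 counts, and 413 of the 15126 genes tested (2.73%) were called by edgeR at an adjusted p below 0.05. Of these, 361 (2.39%) rose and 52 (0.344%) fell in α-KG. Counts of protein-coding genes made up 37.9% to 50.1% of the α-KG libraries and 42.2% to 72.2% of the water libraries. Those of Rn7s1 and Rn7s2, the 7SL RNA of the signal recognition particle, made up 24.0% to 31.0% of the α-KG libraries, against 7.56% to 17.3% of water 1 to 4 and 24.2% of water 5. The part of this composition in the members' values was not tested beyond a fit with the protein-coding share as a covariate, where their median log2 fold change was -0.21. Water 1 to 4 had a higher share than every α-KG library, so this fit cannot tell the part of the share from that of α-KG. The 37 members took 0.0302% to 0.0480% of all counts in α-KG libraries and 0.0408% to 0.0706% in water libraries, which is 4319 to 9465 counts in an α-KG library and 7755 to 15878 counts in a water library.

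None of the 37 complex I genes was called in either direction, beside the 2.39% of all genes tested that were called higher and the 0.344% called lower. At an unadjusted p below 0.05, 4 members were lower (Ndufv1, Ndufb9, Ndufs5 and Ndufc2) and 1 was higher (Ndufb5) in α-KG, where 11.5% of all genes tested were lower and 16.3% higher. The log2 fold change was below 0 in 28 of 37 members (75.7%) and in 48.3% of all genes tested. Its median over the members was -0.17, with a range from -0.49 for Ndufv1 to 0.32 for Ndufb5, and its median over all genes tested was 0.02. By group, 1 member had libraries that did not overlap, Ndufb5, against 5.65% of all genes tested. The number of members below 0 was 28 with RLE scaling, 36 with library totals and 24 with upper quartile scaling.

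**Figure D1:**
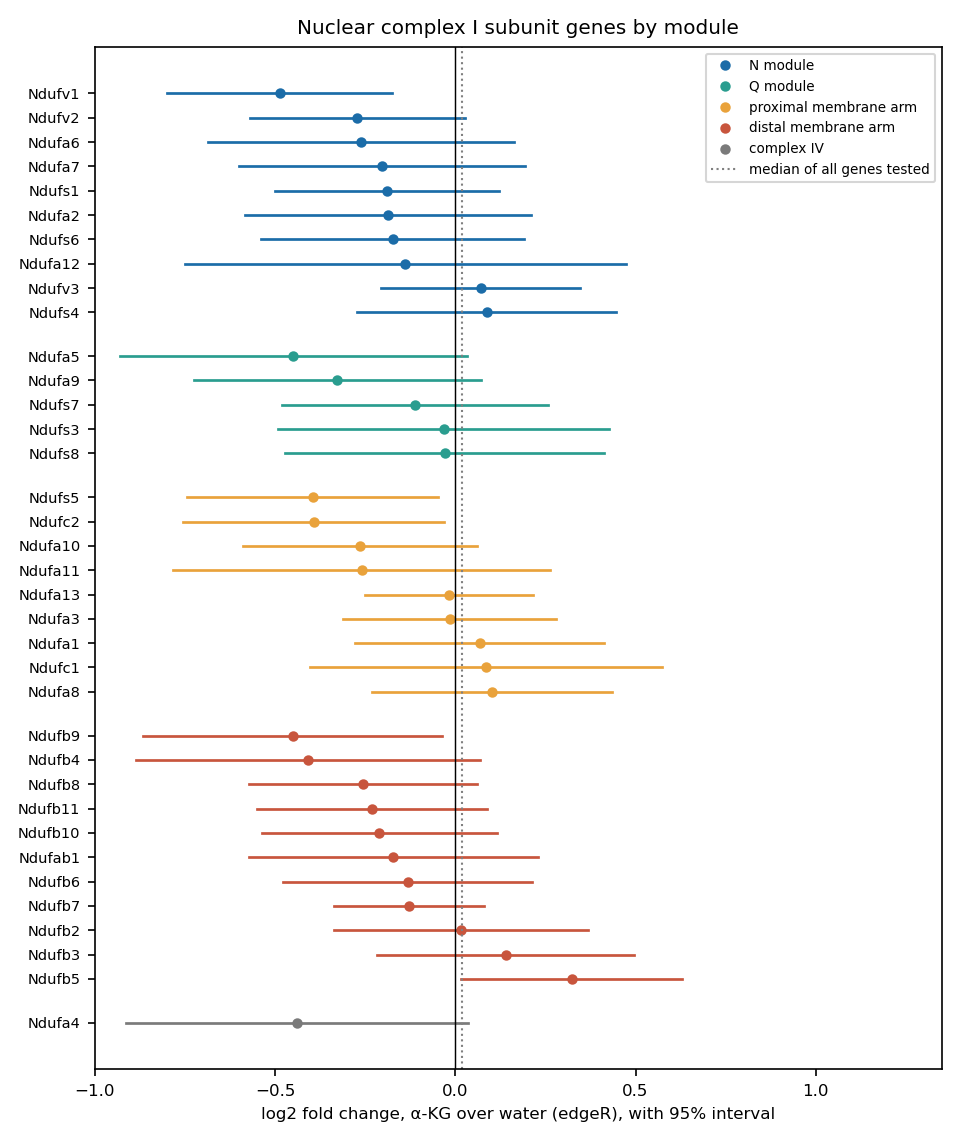
Log2 fold change (α-KG over water, x axis) of 36 of the 37 nuclear complex I genes, grouped by module, with points for edgeR estimates and lines for 95% intervals. Points run from -0.49 for Ndufv1 to 0.32 for Ndufb5, and 28 lie left of 0.

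The 95% intervals of the log2 fold changes give a range for the size of each difference under TMM scaling with all 10 libraries. All 37 intervals lay within 1 log2 unit of 0, a change of 2-fold in either direction, and 23 of 37 lay within a change of 1.5-fold. The lowest end of any interval was -0.93 (Ndufa5) and the highest was 0.63 (Ndufb5). The intervals cover the spread between these libraries and are not adjusted for the number of genes. They do not cover the choice of scaling, and with library totals the members' median was -0.40, beside -0.17 as reported.

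In the N module, 8 of 10 log2 fold changes were below 0, with a median of -0.19, which was -0.12 without water 5 and -0.13 without α-KG 1, and no call. Ndufv1, the flavoprotein subunit that binds NADH (chromosome 19, 4007384 to 4012806, minus strand, GENCODE M21 on GRCm38), had the lowest value of all members. Its level was 22.8, 34.9, 22.3, 24.5 and 30.3 CPM in α-KG 1 to 5, against 37.3, 35.4, 34.0, 37.1 and 45.5 CPM in water 1 to 5. Only α-KG 2 reached into the range of the water libraries, where it stood above water 3, and water 5 was the highest of all. The means were 27.0 ± 5.45 CPM in α-KG and 37.9 ± 4.47 CPM in water (SD, n = 5 each), a log2 fold change of -0.49 ± 0.14 (SE, 95% interval -0.80 to -0.17, adjusted p = 0.0743).

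The call on Ndufv1 depended on the setting. It fell by DESeq2 (log2 fold change -0.51, adjusted p = 0.0250) and by limma voom with quality weights (-0.51, adjusted p = 0.0234). It also fell by edgeR without α-KG 2 (-0.60, adjusted p = 0.0156), the only α-KG library that reached into the water range. Under these settings the share of all genes called lower was 4.3%, 6.54% and 6.97%. None of the other alternative settings called Ndufv1, among them limma voom without weights (adjusted p = 0.0765) and edgeR with RLE scaling (adjusted p = 0.0677). Across 24 alternative settings the log2 fold change of Ndufv1 stayed below 0, from -0.72 to -0.04.

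Ndufv2, the partner of Ndufv1 that carries an iron-sulphur cluster, had 10.8, 12.8, 13.8, 14.2 and 12.3 CPM in α-KG 1 to 5, against 14.8, 13.3, 13.1, 16.1 and 19.9 CPM in water 1 to 5. The groups overlapped through α-KG 3 and α-KG 4 and the lower water libraries (log2 fold change -0.27 ± 0.14 SE, adjusted p = 0.213). Ndufs1, the large iron-sulphur subunit, ranged from 23.6 to 37.5 CPM in α-KG and from 27.6 to 37.8 CPM in water, so the groups overlapped over most of their range (-0.19 ± 0.14 SE, adjusted p = 0.389). The supernumerary subunits Ndufs4, Ndufs6, Ndufa2, Ndufa6, Ndufa7, Ndufa12 and Ndufv3 had log2 fold changes from -0.26 (Ndufa6) to 0.09 (Ndufs4). Ndufs4, which is mutated in an inherited form of Leigh syndrome in humans, stood at 5.54 ± 1.27 CPM in α-KG and 5.18 ± 0.517 CPM in water.

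In the Q module, 5 of 6 values were below 0, with a median of -0.07 that ran from -0.18 (without water 2) to 0.05 (without water 5) when one library was left out. Ndufa5, a supernumerary subunit of this module, had 3.93, 7.70, 4.43, 3.14 and 4.10 CPM in α-KG 1 to 5, against 5.47, 7.40, 5.83, 5.91 and 7.65 CPM in water 1 to 5. α-KG 2 was the highest of all 10 libraries, and the other 4 α-KG libraries lay below every water library. With all libraries its log2 fold change was -0.45 ± 0.22 (SE, adjusted p = 0.203). Without α-KG 2, Ndufa5 was called (-0.71, adjusted p = 0.0195), a setting under which 6.97% of all genes tested were called lower.

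Ndufa9, a supernumerary subunit that holds a nucleotide, ranged from 6.91 to 10.5 CPM in α-KG and from 7.99 to 13.4 CPM in water (log2 fold change -0.33 ± 0.18 SE, adjusted p = 0.255). Ndufs7, which carries the last iron-sulphur cluster before ubiquinone, averaged 11.8 ± 1.75 CPM in α-KG and 12.7 ± 2.96 CPM in water (log2 fold change -0.11 ± 0.17 SE). The core gene Ndufs3 was at 10.3 ± 2.05 CPM in α-KG and 10.5 ± 3.28 CPM in water, and Ndufs8, which carries iron-sulphur clusters, at 7.71 ± 1.77 CPM in α-KG and 7.85 ± 2.25 CPM in water (SD, n = 5 each). Over the 7 core genes, 6 values were below 0 with a median of -0.11, and over the 29 supernumerary genes 21 were below 0 with a median of -0.17.

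In the proximal membrane arm, 6 of 9 values were below 0, with a median of -0.02 (from -0.07 without α-KG 2 to 0.03 without water 5). Ndufs5, a subunit on the intermembrane space side, had 3.89, 3.70, 3.78, 2.85 and 3.24 CPM in α-KG 1 to 5, against 4.70, 4.32, 3.77, 4.59 and 5.86 CPM in water 1 to 5. Only water 3 lay within the range of the α-KG libraries (log2 fold change -0.40 ± 0.16 SE, adjusted p = 0.141). Ndufc2, a membrane subunit, had 5.37, 4.54, 6.32, 5.89 and 3.81 CPM in α-KG 1 to 5, against 6.62, 6.95, 5.29, 7.88 and 7.36 CPM in water 1 to 5. Water 3 was again the library that overlapped the α-KG range (-0.39 ± 0.17 SE, adjusted p = 0.154). Ndufa10 and Ndufa11 both stood at -0.26, while Ndufa13, Ndufa3, Ndufa1, Ndufc1 and Ndufa8 lay between -0.02 and 0.10. Ndufa13, also known as GRIM-19, averaged 17.1 ± 1.65 CPM in α-KG and 17.4 ± 1.40 CPM in water.

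In the distal membrane arm, 8 of 11 values were below 0, with a median of -0.17 (from -0.27 without α-KG 2 to -0.10 without water 5), and this arm held the members with the second lowest and the highest values. Ndufb9, a supernumerary subunit, had 13.6, 29.4, 20.4, 21.3 and 27.2 CPM in α-KG 1 to 5, against 32.4, 29.3, 23.7, 30.6 and 36.9 CPM in water 1 to 5. α-KG 1 was the lowest library, and α-KG 2 and α-KG 5 lay within the water range (log2 fold change -0.45 ± 0.19 SE, adjusted p = 0.152). Ndufb5, a membrane subunit, had 7.70, 7.50, 8.91, 11.4 and 7.48 CPM in α-KG 1 to 5, against 7.05, 7.05, 6.93, 6.05 and 7.15 CPM in water 1 to 5. Every α-KG library lay above every water library, by a narrow margin except in α-KG 3 and α-KG 4. The log2 fold change was 0.32 ± 0.14 (SE, adjusted p = 0.164). The exact two-sided permutation p was 0.00794, the smallest that assignments of 5 and 5 libraries can give and not adjusted for the 37 genes. Any gene whose groups do not overlap has this p, and 5.65% of all genes tested had such groups. Ndufb5 overlaps Mrpl47 on the opposite strand over 616 bases. Whether reads were counted by strand is not known from the labels, so reads of the overlap could belong to either gene, although Mrpl47 held 366 counts in all and Ndufb5 held 1518. Mrpl47 itself stood at -0.14 ± 0.27 (SE, adjusted p = 0.756).

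Ndufa4, the complex IV protein, had 6.14, 9.58, 7.50, 9.88 and 7.12 CPM in α-KG 1 to 5, against 14.2, 10.4, 6.39, 9.42 and 14.01 CPM in water 1 to 5. Water 1 and water 5 stood above the rest, and water 3 lay among the α-KG libraries (log2 fold change -0.44 ± 0.22 SE, adjusted p = 0.206).

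**Figure D2:**
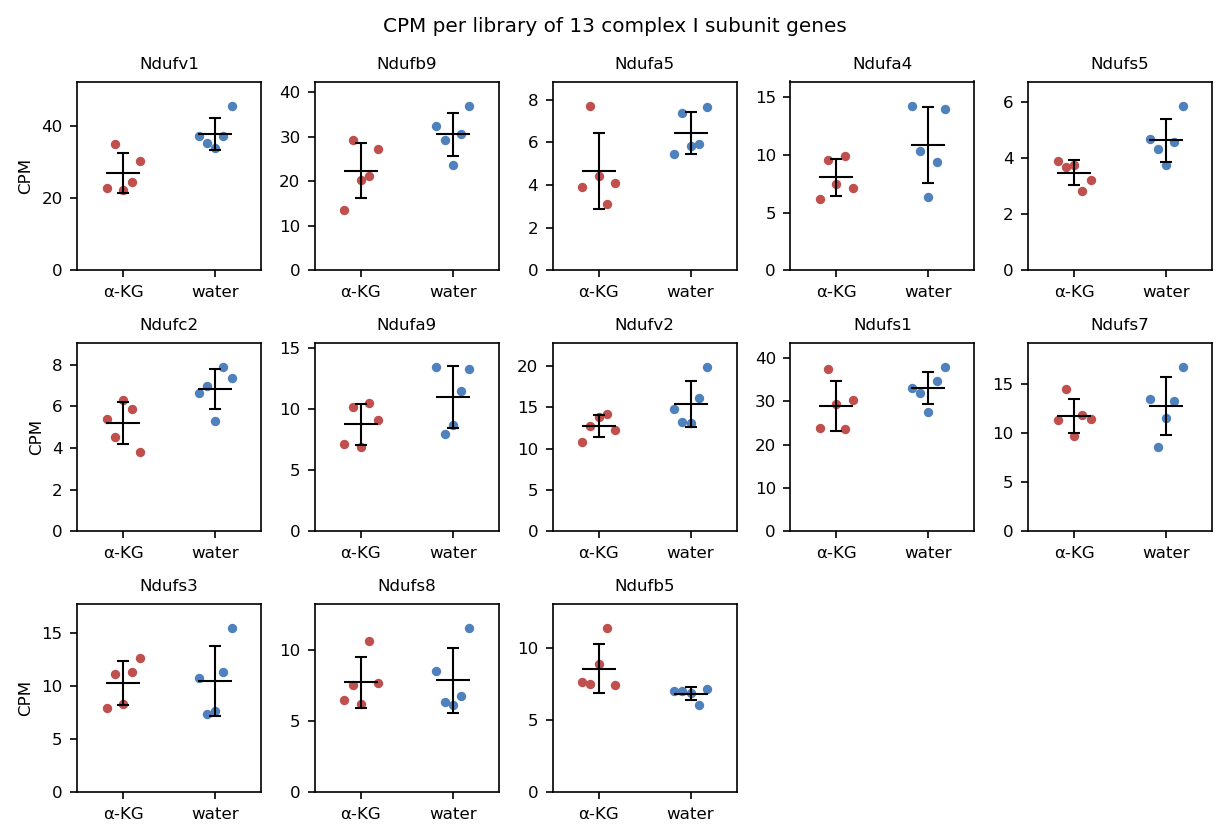
CPM (y axis, from 0) of 13 complex I genes in each α-KG library (red, left) and each water library (blue, right), with the mean and SD of each group as black bars. Only in Ndufb5 do the groups not overlap, and in Ndufa5 a single α-KG library at 7.70 CPM stands above the other 4.

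In some libraries many members were high or low together. Water 5 had the highest value of its group for 27 of 37 members and the highest of all 10 libraries for 20. Water 3 had the lowest value of its group for 22 members. Among α-KG libraries, α-KG 2 was highest for 13 members and α-KG 1 was lowest for 13, while α-KG 4 and α-KG 5 were each highest for 10 and lowest for 6. Members share these libraries and their scaling, so the members are not independent of each other. The coefficient of variation between libraries had a median over members of 19.1% in α-KG and 17.8% in water, and reached 37.9% for Ndufa5 in α-KG and 42.9% for Ndufa12 in water.

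Summed over the 37 members, the level was 354, 467, 395, 410 and 439 CPM in α-KG 1 to 5, against 491, 442, 395, 470 and 554 CPM in water 1 to 5. The groups overlapped, with α-KG 2 above water 2 and water 3, and averaged 413 ± 43.2 CPM in α-KG and 470 ± 59.2 CPM in water (SD, n = 5 each). Without water 5 the median log2 fold change of the members was -0.10, and without water 3 it was -0.26, beside -0.17 with all libraries. In RNA from mixed marrow cells, fewer cells of a type with high levels and less RNA per cell cannot be told apart.

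Per kilobase of transcript, which allows levels of different genes to be compared, the most abundant members in water were Ndufb9 (43.5 ± 6.80 CPM per kilobase), Ndufb11 (42.6 ± 7.01), Ndufb7 (38.2 ± 2.32) and Ndufb10 (29.3 ± 6.20), all of the distal membrane arm. In α-KG the same genes stood at 31.8 ± 8.80 CPM per kilobase for Ndufb9, 36.3 ± 5.95 for Ndufb11, 34.9 ± 2.22 for Ndufb7 and 25.3 ± 3.23 for Ndufb10. In water the first 3 differed from each other by less than the SD of Ndufb9. The core genes described above lay lower, from 7.53 (Ndufv2) to 16.2 CPM per kilobase (Ndufv1) in α-KG and from 7.99 (Ndufs8) to 22.8 CPM per kilobase (Ndufv1) in water. The lowest members per kilobase were Ndufb4, at 1.55 ± 0.285 in α-KG and 2.04 ± 0.440 in water, and Ndufab1, the mitochondrial acyl carrier protein, at 1.73 ± 0.376 in α-KG and 1.95 ± 0.359 in water. The length used for Ndufab1 is 3479 bases and includes a long untranslated part, which lowers its level per kilobase. Ndufb4 is identical over 390 bases to a copy, Ndufb4c, which held 868 counts in all against 362 for Ndufb4. The rank of Ndufb4 therefore depends on how reads were divided between the copies.

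Several members share sequence with processed pseudogenes, and the division of reads between such copies is uncertain. Ndufb4 is identical over 390 bases to Ndufb4c, which held 868 counts in all while Ndufb4 held 362. Summed, the pair stood at 5.41 ± 1.29 CPM in α-KG and 6.65 ± 1.84 CPM in water, a log2 ratio of means of -0.30 (exact two-sided permutation p = 0.270, n = 5 each), where Ndufb4 alone had a log2 fold change of -0.41. Ndufa12 matched its pseudogene over 402 bases at 99.5% identity, and the pair summed to 7.49 ± 0.971 CPM in α-KG and 7.70 ± 1.89 CPM in water, a log2 ratio of -0.04. Copies of Ndufab1, Ndufs3, Ndufs6 and Ndufb11 held at most 92.4 counts each. Ndufs5 matches BC002163 at 99.4% identity over 319 bases, and no count of that copy was used here.

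Transcript length went with the values across all genes. Protein-coding genes of up to 600 bases had a median log2 fold change of -0.12, and the 10 members in that class had -0.18. Genes of 600 to 1200 bases had a median of -0.02, where 17 members had -0.14, and genes of 1200 to 2400 bases had a median of 0.02, where 8 members had -0.14. The part of transcript length in the members' values was not tested beyond these classes.

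Other nuclear genes of the respiratory chain had medians of the same sign, and none was called. Of 9 complex III genes, which pass electrons from ubiquinol to cytochrome c, 8 were below 0 with a median of -0.20. Of the 16 complex IV genes matched by name, 11 were tested and 9 of these were below 0, with a median of -0.24. Of 18 genes of ATP synthase (complex V), 16 were below 0 with a median of -0.15. Without water 5 the medians of complexes III, IV and V were -0.15, -0.12 and -0.08. Genes of mitochondrial ribosomal proteins, which translate the mt-Nd messages, divided evenly, with 38 of 78 below 0 and a median of 0.01. The 4 succinate dehydrogenase genes of complex II had a median of -0.03. The counts at an unadjusted p below 0.05 were 1 of 9 for complex III, 2 of 11 for complex IV and 2 of 18 for complex V, all lower in α-KG. At that threshold 11.5% of all genes tested were lower.

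**Figure D3:**
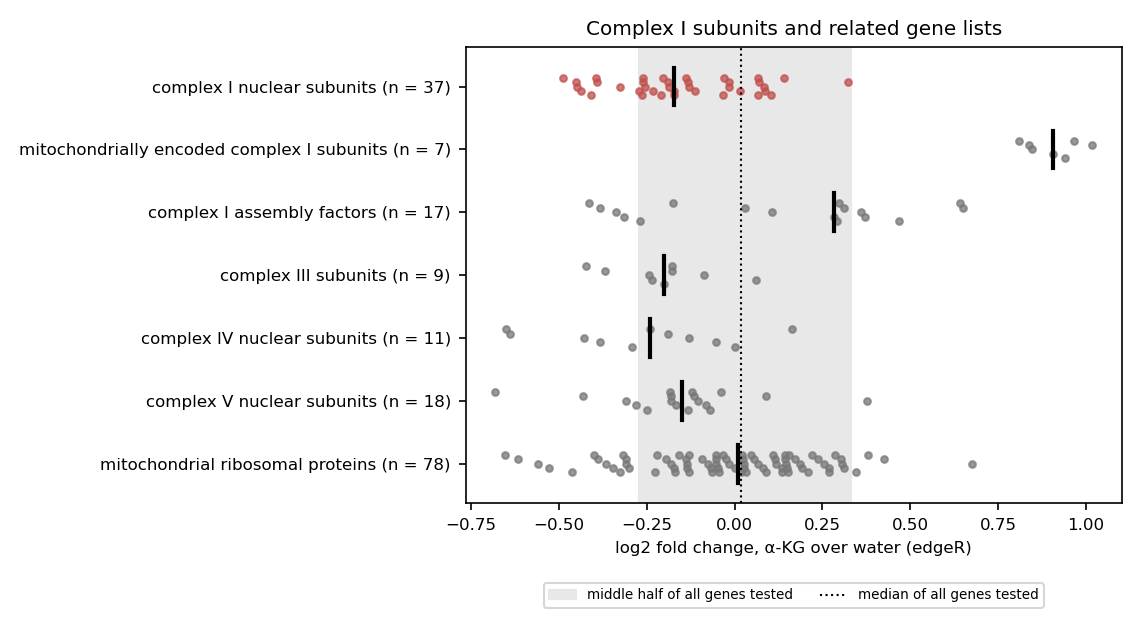
Log2 fold change (α-KG over water, x axis) of each gene in 7 lists (rows), with a black bar at each list's median, a grey band for the quartile range of all genes tested and a dotted line at their median. The 37 nuclear complex I genes have a median of -0.17 and the 7 mt-Nd genes a median of 0.91.

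The mt-Nd genes, whose products join the nuclear subunits in the membrane arm, all had log2 fold changes above 0, from 0.81 (mt-Nd4) to 1.02 (mt-Nd3), and none was called. Their summed level was 4183, 5717, 8394, 14041 and 3772 CPM in α-KG 1 to 5, against 1773, 3116, 4591, 3790 and 6626 CPM in water 1 to 5. The groups overlapped widely, with α-KG 4 far above the rest and α-KG 5 below 3 of the 5 water libraries. At an unadjusted p below 0.05, 3 of 7 were higher (mt-Nd3, mt-Nd4l and mt-Nd6), where 16.3% of all genes tested were. The adjusted p of the 7 genes ran from 0.140 to 0.234. With voom and quality weights mt-Nd3 was called (log2 fold change 1.24, adjusted p = 0.0404), a setting that called 1401 of 15126 genes higher. Mitochondrial messages are made from shared precursors, so the 7 genes are not independent, and nuclear copies of mitochondrial DNA can take part of their reads. Means were 7222 ± 4221 CPM in α-KG and 3979 ± 1805 CPM in water (SD, n = 5 each). The median log2 fold change of the 7 genes was 0.91, and it was 0.49 without α-KG 4 and 0.16 with the protein-coding share of each library as a covariate.

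**Figure D4:**
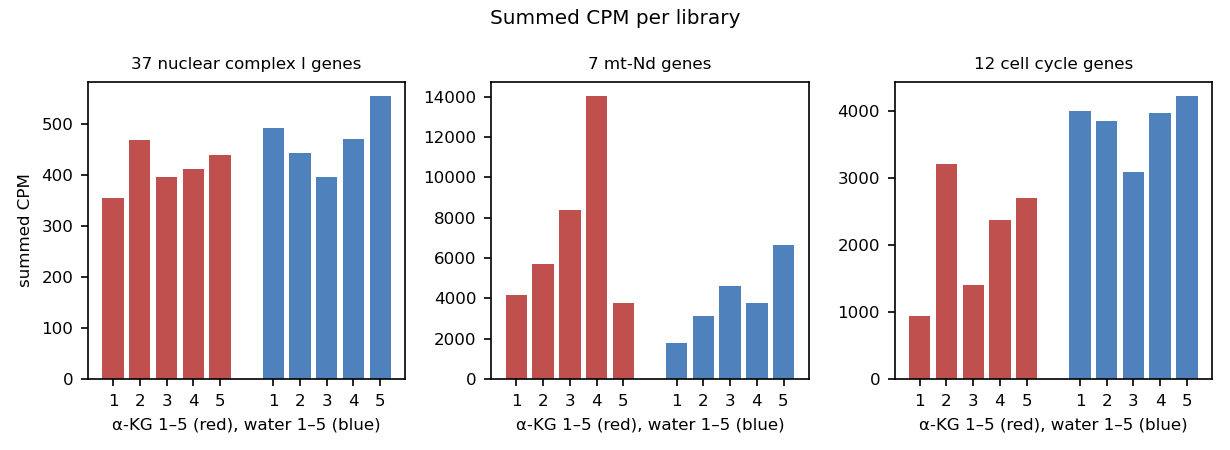
Summed CPM (y axis) of the 37 nuclear complex I genes, the 7 mt-Nd genes and 12 cell cycle genes in each library, with α-KG 1 to 5 in red on the left and water 1 to 5 in blue on the right. The nuclear genes range from 354 to 467 CPM in α-KG and from 395 to 554 CPM in water, and the mt-Nd genes reach 14041 CPM in α-KG 4.

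Of 19 assembly factor genes, which build complex I but are not part of it, 17 were tested, 11 were above 0 and none was called (median 0.28). Ndufaf4 had 1.91, 2.42, 3.31, 3.23 and 2.59 CPM in α-KG 1 to 5, against 1.67, 1.89, 1.81, 1.64 and 1.501 CPM in water 1 to 5. Its groups did not overlap, as in 5.65% of all genes tested (log2 fold change 0.64 ± 0.20 SE, adjusted p = 0.0808). It was called by voom with quality weights (0.70, adjusted p = 0.0268) and without α-KG 2 (0.68, adjusted p = 0.0480). These 2 settings called 1401 of 15126 and 1610 of 15384 genes higher. Ecsit, an assembly factor that also acts in innate immune signalling, averaged 4.27 ± 0.946 CPM in α-KG and 3.11 ± 0.830 CPM in water (0.47 ± 0.22 SE, adjusted p = 0.189).

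Of 13 regulators of respiratory chain genes, 12 were tested, 9 were below 0 and none was called (median -0.17). At an unadjusted p below 0.05, 4 were lower, where 11.5% of all genes tested were. Nrf1, which encodes the factor whose letters were searched above, had 28.8, 46.5, 28.8, 38.9 and 41.7 CPM in α-KG 1 to 5, against 52.1, 50.3, 42.9, 51.6 and 55.3 CPM in water 1 to 5. Only α-KG 2 reached above water 3, the lowest water library. Its log2 fold change was -0.45 ± 0.15 (SE, adjusted p = 0.0943), and it was called by DESeq2 (-0.48, adjusted p = 0.0430), by voom with quality weights (-0.47, adjusted p = 0.0316) and without α-KG 2 (-0.55, adjusted p = 0.0284). Gabpb2, a subunit of the GA-binding protein, averaged 88.6 ± 19.2 CPM in α-KG and 119 ± 8.15 CPM in water (-0.43 ± 0.16 SE, adjusted p = 0.111), and was called under the same 3 settings. Under these settings, in the same order, 4.3%, 6.54% and 6.97% of all genes tested were called lower.

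Genes that feed electrons or ubiquinone into the chain apart from complex I had a median of -0.03, with 8 of 15 below 0 and no call by edgeR with all libraries. Etfdh and Etfa, which pass electrons from fatty acid oxidation to ubiquinone, had the smallest p. Etfdh averaged 15.6 ± 3.74 CPM in α-KG and 20.8 ± 1.90 CPM in water (-0.41 ± 0.16 SE, adjusted p = 0.127). It was called by voom with quality weights (-0.46, adjusted p = 0.0436) and without α-KG 2 (-0.53, adjusted p = 0.0371). These 2 settings called 6.54% and 6.97% of all genes tested lower. Etfa averaged 9.93 ± 2.26 CPM in α-KG and 13.2 ± 2.48 CPM in water (-0.42 ± 0.18 SE, adjusted p = 0.157). Etfb, in the same list, had the opposite sign (0.18 ± 0.14 SE, adjusted p = 0.392).

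Some members start back to back with another protein-coding gene, within 1000 bases on the opposite strand. Of 12 such members, 10 had a neighbour that was tested, and none of these neighbours was called. The log2 fold changes of member and neighbour had the same sign in 8 of the 10 pairs, a share not computed for other pairs of genes. Both were above 0 for Ndufa1 (0.07) with Rnf113a1 (0.09) and for Ndufb3 (0.14) with Fam126b (0.17). The signs were opposite for Ndufa11 (-0.26) with Vmac (0.31) and for Ndufb5 (0.32) with Mrpl47 (-0.14). Tatdn1, 26 bases from the start of Ndufb9, stood at -0.64 ± 0.20 (SE, adjusted p = 0.0834) beside -0.45 for Ndufb9. Rbm10, 3 bases from Ndufb11, stood at -0.45 ± 0.14 (SE, adjusted p = 0.0861) beside -0.23 for Ndufb11, and Eef1b2, 3 bases from Ndufs1, stood at -0.31 ± 0.13 (SE, adjusted p = 0.149) beside -0.19 for Ndufs1. Both of these pairs overlap, over 117 bases for Rbm10 and 9 bases for Eef1b2, so a few reads of each could belong to the partner.

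Marker lists of marrow cells were read beside these values. All 12 cell cycle genes had log2 fold changes below 0 (median -0.78) and an unadjusted p below 0.05, and none was called. Their summed level was 946, 3207, 1411, 2368 and 2697 CPM in α-KG 1 to 5, against 3999, 3844, 3094, 3978 and 4230 CPM in water 1 to 5. The same library, α-KG 1, was lowest and the same library, water 5, was highest for both this sum and the sum of the complex I genes. α-KG 1 was at an extreme for other lists too, with the highest B cell sum (448 CPM) and platelet sum (71.4 CPM) of all libraries. A link between the cell cycle and complex I sums was not tested. All 10 monocyte genes were above 0 and 7 rose (median 1.11), with a sum of 631 to 1226 CPM in α-KG and 454 to 613 CPM in water. All 10 macrophage genes were above 0 and 4 rose (median 1.01), with a sum of 98.7 to 175 CPM in α-KG and 47.5 to 93.8 CPM in water. Of 12 erythroid genes, 8 were below 0 and none was called (median -0.56), with sums of 25670 to 90093 CPM in α-KG and 23617 to 59692 CPM in water.

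Neutrophil genes were at 3465 to 6947 CPM in α-KG and 3424 to 6351 CPM in water, with 6 of 12 below 0 and a median of 0.01. All 10 T and NK cell genes were above 0 and 2 rose (median 0.81), 8 of 9 B cell genes were above 0 (median 0.44) and 5 of 8 platelet genes were above 0 (median 0.27). No gene of the monocyte, macrophage, neutrophil, erythroid, T and NK, B cell, platelet or cell cycle lists was at 0 in all libraries. Skeletal muscle genes summed to at most 17.97 CPM in α-KG and 7.89 CPM in water, and brown adipocyte genes to at most 7.04 CPM in α-KG and 4.44 CPM in water, with 2 of the 6 at 0 in all libraries.

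With the monocyte mean as a covariate, the median log2 fold change of the 37 members was 0.07 and 12 were below 0. With the cell cycle mean as a covariate, chosen after the data were seen, it was 0.13 and 10 were below 0. With the erythroid mean it was -0.07 and 22 were below 0, and with the neutrophil mean, also chosen after the data were seen, it was -0.17 and 26 were below 0. The medians of complexes III, IV and V with the monocyte mean were 0.10, 0.18 and 0.07, and that of the 7 mt-Nd genes was -0.20. No member was called with any of these covariates. Of all 15126 genes tested, 0 were called with the monocyte or the cell cycle mean, 152 with the erythroid mean and 292 with the neutrophil mean. The monocyte and cell cycle means differ between the groups themselves, so their part and that of α-KG in these values cannot be told apart.

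**Figure D5:**
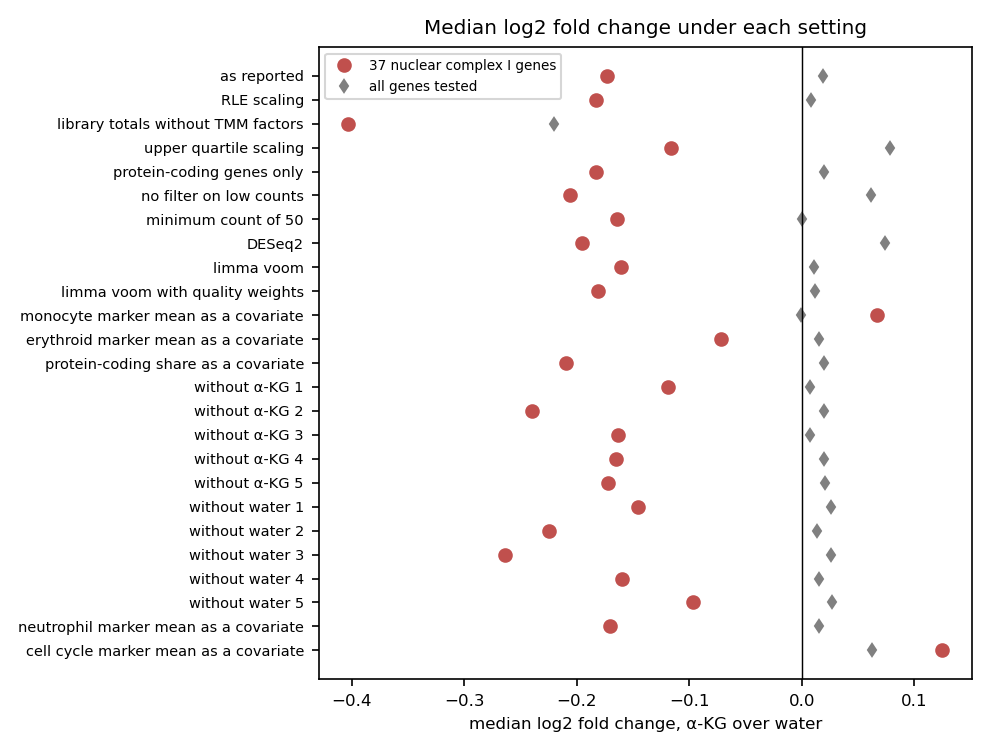
Median log2 fold change (α-KG over water, x axis) of the 37 nuclear complex I genes (red circles) and of all genes tested (grey diamonds) as reported and under 24 alternative settings (rows). The members' median is below 0 in all but the monocyte and cell cycle covariate fits, at 0.07 and 0.13.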

How the data were processed

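Total RNA of bone marrow cells was depleted of ribosomal RNA with RNase H and sequenced on an Illumina instrument, per the labels' protocols. The submitters' processing notes name bcl2fastq, DRAGEN and the build GRCm38; no quantifier, annotation or strand setting is named there. Per gene, the deposited values are expected counts, not scaled between libraries, of which 10.3% are not whole numbers. They were rounded, filtered with filterByExpr (minimum count 10, minimum total 15) and tested two-sided with edgeR 4.0.16 (quasi-likelihood F test, TMM, robust dispersion, R 4.3.3), adjusted by Benjamini-Hochberg over 15126 genes at a threshold of 0.05. CPM are counts per 1e+06 after TMM. Standard errors are the log2 fold change over the square root of F. The common biological coefficient of variation was 0.254. DESeq2 1.42.0 and limma 3.58.1 voom were alternatives, with other scalings, filters, covariates and each library left out. Positions and lengths are from GENCODE M21 on GRCm38 (53292 of 55367 symbols found). Some steps were run on 3 simulated data sets with 200 changed genes each, and the outcome is not given here.

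Members and lists were chosen with earlier results of these data known. The named genes were every member past the threshold, the 2 members with the smallest p in each module, Ndufa4, the 7 core genes, the members with the highest and lowest value, the mt-Nd genes, and the 2 genes with the smallest p of the assembly factor, regulator and ubiquinone lists. One gene that this rule takes is not reported here. Other members and Etfb are given by their range or as examples chosen after their values were seen.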

Additional observations from a re-analysis of the deposited data

Results flagged for a closer look

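Within-group values of the complex I genes were checked with Dixon's test at its 95% critical value, and 7 of 74 groups held a library far from the others. The nominal rate of this test is about 1 in 20. Members share libraries and scaling, so no excess over that rate can be read from the count. In α-KG 2, the level of Ndufs6 was 8.99 CPM where the other α-KG libraries lay between 5.76 and 6.34 CPM. In the same library Ndufa5 was at 7.70 CPM, above 3.14 to 4.43 CPM in the others, and Ndufa3 was at 10.02 CPM, above 8.38 to 8.83 CPM. Water 5 was high for Ndufa3, at 11.7 CPM against 7.64 to 8.81 CPM, and for Ndufb6, at 4.93 CPM against 4.02 to 4.17 CPM in the other water libraries. Water 3 was low for Ndufa6, at 11.01 CPM against 15.3 to 16.01 CPM. Water 4 was low for Ndufb5, at 6.05 CPM against 6.93 to 7.15 CPM.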

How the results depend on the processing

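The 413 genes called over all became 1159 with library totals, 1654 by DESeq2, 267 by limma voom, 2390 by voom with quality weights, 152 with the erythroid mean and 0 with the monocyte mean, the protein-coding share or the cell cycle mean as a covariate, where 137, 3457 and 841 genes had an unadjusted p below 0.05. With one library left out the count ran from 0 to 2683; it was 0 when α-KG 4, water 1, water 2 or water 4 was left out, 37 when α-KG 3 was, 72 when water 5 was and 2683 when α-KG 2 was, and 139, 149 and 632 when α-KG 1, α-KG 5 and water 3 were. Members called lower numbered 1 by DESeq2, 1 by voom with quality weights and 0 to 2 with one library left out, the 2 without α-KG 2; members called higher numbered 0 under every setting. The members' median log2 fold change of -0.17 moved to -0.40 with library totals, where the median of all genes was -0.22 and the difference from it was -0.18, to 0.0670 with the monocyte mean and to 0.13 with the cell cycle mean, and ran from -0.26 to -0.10 with one library left out. The cause of these shifts was not tested.

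With the monocyte mean the log2 fold change was 0.41 for Ndufa5, 0.0102 for Ndufa9, 0.0586 for Ndufb9, -0.0406 for Ndufb5, 0.0915 for Ndufa4, 0.36 for Ndufs1, 0.19 for Ndufs3, 0.28 for Ndufs7, 0.0479 for Etfa, -0.24 for mt-Nd1, -0.23 for mt-Nd2, -0.12 for mt-Nd3, -0.20 for mt-Nd4, -0.0417 for mt-Nd4l, -0.24 for mt-Nd5 and -0.11 for mt-Nd6. With the cell cycle mean it was 0.12 for Ndufa9, 0.16 for Ndufb9, 0.0829 for Ndufa4, 0.14 for Ndufs1, 0.49 for Ndufs3, 0.18 for Ndufs7, 0.35 for Ndufs8 and 0.11 for Etfa. Ndufs3 and Ndufs8, both at -0.03 as reported, were at 0.0166 and 0.0243 with upper quartile scaling, 0.00873 and 0.10 by voom with quality weights and 0.10 and 0.0410 with the erythroid mean, and Ndufs3 was at 0.00578 with the neutrophil mean. With one library left out, Ndufs3 ran from -0.14 to 0.14, Ndufs7 from -0.22 to 0.000878 and Ndufs8 from -0.16 to 0.14.

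No paired analysis was possible because no number in the titles is shared by an α-KG and a water library. Depth limits the low members: Ndufb4 held 362 counts over 10 libraries.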
